A study of Rattus norvegicus with 12 samples.

Results

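The windows described here are the 30 stretches of 1 Mb in which the length of open chromatin differed most between saline-treated rats. They were chosen from 1225 windows on chromosomes 1 to 20 by the SD over the 6 Control libraries, and hold 1968 of the 117408 merged open regions on those chromosomes. ATAC-seq peak lists were available for the amygdala of adult male rats (strain Sprague Dawley/WT). The 6 Control animals received saline, and the 6 animals of the Acute Ethanol group, called Ethanol here, received 1 g/kg ethanol by the same intraperitoneal route. Tissue was taken 1 h after the injection in both groups, and each library came from a separate animal. No genetic change or other agent is given for either group.

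In ATAC-seq a transposase cuts and tags DNA that is not wrapped tightly around nucleosomes, so that sequenced fragments pile up into peaks at promoters, enhancers and other exposed sites. Active regulatory DNA tends to lie in clusters along a chromosome, and stretches poor in genes hold few and weak peaks. The amygdala is a mixed tissue of several neuron and glial types, and in whole tissue a change in the mix of cells and a change of chromatin within cells cannot be told apart.

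The measure throughout was the covered length of a window, that is, the summed length of the peaks that start in it, divided by the covered length of the whole library. It is printed as kb of peaks in the window per 100 Mb of peaks in the library, and all SDs and differences are on the log2 scale after adding 100 bp to the covered length. The libraries held 50370 to 75847 peaks covering 75.6 to 134.6 Mb, and the lists carry no read counts, so the sequencing depth is unknown. Markers of amygdala cell types could not be checked in these lists, because gene positions in the genome build of the files, Rnor_6.0 per the submitters' processing notes, were not used here.

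Because the Control values chose the 30 windows, their Control spread is a description. The Control SD of the 30 windows had a median of 0.457 and ran from 0.390 to 0.879, whereas the median over all 1225 ranked windows was 0.171. Between the lowest and the highest Control animal, the covered length of a chosen window differed by a median of 2.50-fold (range 1.89 to 3.99), compared with 1.37-fold over all windows. The last window inside the choice, on chromosome 5 from 5 to 6 Mb, had a Control SD of 0.3895, and the first outside it, on chromosome 1 from 244 to 245 Mb, had 0.3888. The border is therefore not a natural break. The windows lay on 15 chromosomes, and no 2 of them were adjacent. The nearest pair, on chromosome 17 from 46 and from 48 Mb, was separated by 1 window.

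The window with the largest Control spread lay on chromosome 7 from 21 to 22 Mb. Its Control values ranged from 17.0 kb per 100 Mb in Control 5 to 68.0 in Control 3, with a median of 23.3 (mean 36.1 ± 23.6, SD, n = 6). Its Ethanol values ranged from 22.2 in Ethanol 1 to 67.3 in Ethanol 3, with a median of 27.5 (34.2 ± 17.0, n = 6). In both groups most animals lay near the low end and the spread came from few high libraries, Control 2 and Control 3 in one and Ethanol 3 in the other. The SD was 0.88 among Control and 0.59 among Ethanol animals, and the latter was the fourth largest Ethanol SD of all ranked windows.

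On chromosome 9 from 4 to 5 Mb, Control values ran from 28.9 kb per 100 Mb in Control 4 to 104.5 in Control 3, with a median of 61.5. Ethanol values there ran from 49.8 in Ethanol 4 to 100.2 in Ethanol 3, with a median of 52.9. Control 3 and Ethanol 3 were again the highest libraries of their groups. The part of the study's peak annotation that was held places peaks of this window within 200 kb of Kat2b, a histone acetyltransferase, and Sgo1, which protects cohesion at centromeres.

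On chromosome 6 from 131 to 132 Mb, Control values ran from 10.5 kb per 100 Mb in Control 1 to 32.5 in Control 6, with a median of 25.9. Ethanol values ran from 12.5 in Ethanol 5 to 44.0 in Ethanol 1, with a median of 27.1. Here the low animals stood apart instead: Control 1, Control 2 and Ethanol 5 lay between 10.5 and 12.5 kb per 100 Mb, and the lowest of the other libraries was Control 3 at 24.6. On chromosome 8 from 120 to 121 Mb, Control values ran from 16.5 in Control 1 to 53.2 in Control 5 (median 34.6). The Ethanol values of that window ran from 23.0 in Ethanol 3 to 55.3 in Ethanol 1 (median 32.2). The ranges of the groups overlapped in these windows, as they did in each window described above.

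The fifth and sixth windows by Control SD differed in how far the Ethanol animals varied. On chromosome 16 from 64 to 65 Mb, Control values ran from 18.6 kb per 100 Mb in Control 5 to 66.7 in Control 3 (median 26.4) and Ethanol values from 20.1 in Ethanol 2 to 50.8 in Ethanol 5 (median 22.9). Peaks of this window were annotated by the study within 200 kb of Dusp26, a protein phosphatase, and of Rnf122 and Tti2. On chromosome 14 from 22 to 23 Mb, Control values ran from 19.0 in Control 4 to 68.2 in Control 1 (median 44.6) and Ethanol values from 31.5 in Ethanol 4 to 61.8 in Ethanol 5 (median 47.8). The Ethanol SD was 0.50 in the former and 0.33 in the latter, against Control SDs of 0.69 and 0.67.

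**Figure D1:**
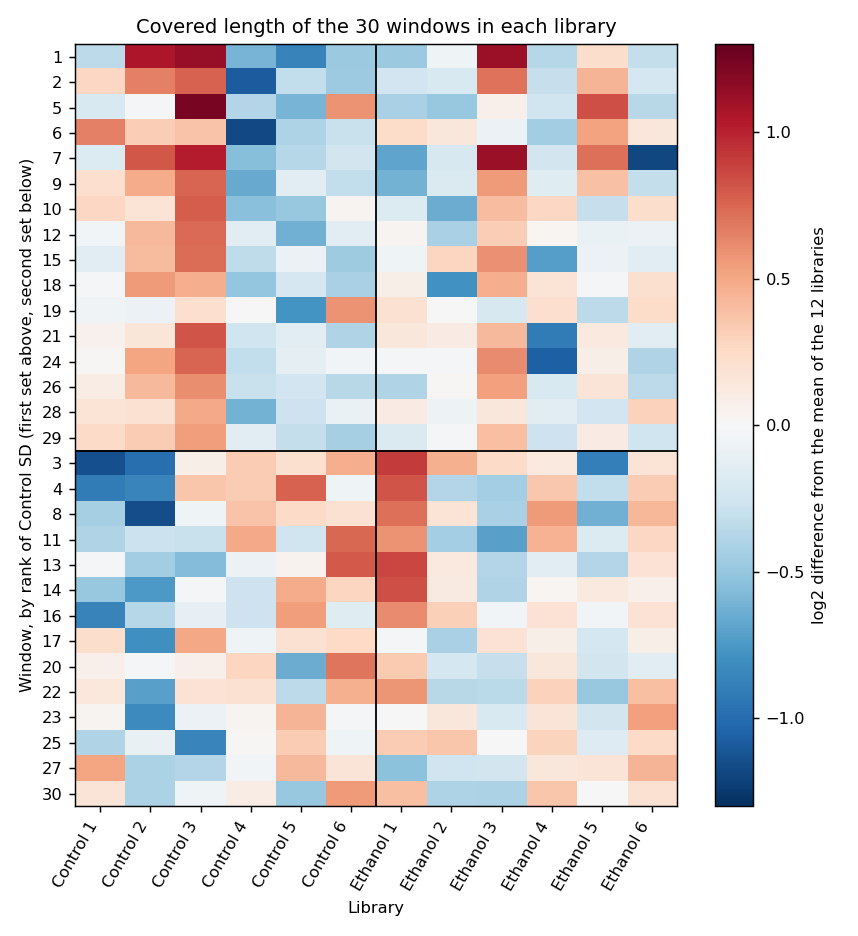
Covered length of the 30 windows (rows, labelled by their rank in Control SD) in the 12 libraries (columns), as the log2 difference from the mean of all 12 libraries. The black horizontal line parts the first set of 16 windows from the second set of 14. Control 3 and Ethanol 3 are high in most of the first set, and Control 6 and Ethanol 1 in most of the second set.

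The first question was whether Ethanol animals, whose spread did not enter the choice (their mean counted towards the minimum of 20 kb), varied in the same windows. They did so in most of them. The Ethanol SD of the 30 windows had a median of 0.417 (range 0.203 to 0.861), compared with 0.158 over all 1225 windows, and each of the 30 lay above that overall median. Of the 30, 21 were among the highest 10% of windows by Ethanol SD, where 9.96% of all ranked windows lie by construction. Of the 30 windows that an Ethanol ranking would have chosen, 15 were the same, and 7 of the 10 windows with the largest Ethanol SD were members. Over all 1225 windows Spearman's rho between the SDs of the groups was 0.480, and over the 30 members it was 0.559. These are correlations across windows that share libraries, and so are descriptions.

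The spread was smaller among Ethanol than among Control animals in 25 of the 30 windows, compared with 54.1% of all windows. Since the windows were picked for a large Control SD, the choice itself favours this direction, and nothing is read from it. The highest Ethanol library exceeded the lowest by a median of 2.07-fold (range 1.44 to 4.95) in the 30 windows and by 1.34-fold over all windows.

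**Figure D2:**
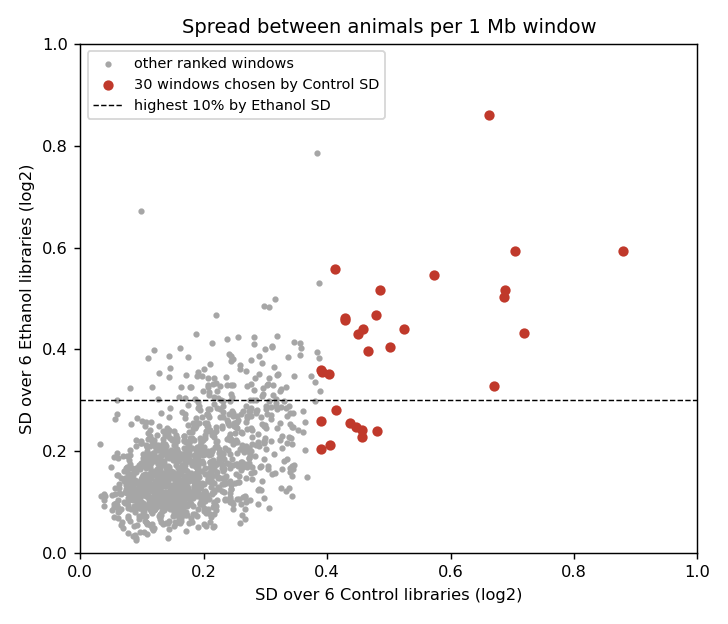
SD of log2 covered length over the 6 Control libraries (horizontal axis) against that over the 6 Ethanol libraries (vertical axis), 1 point per window. The 30 chosen windows are red, and 21 of them lie above the dashed line that bounds the highest 10% of all windows by Ethanol SD.

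The widest Ethanol spread of all ranked windows was found in a member, on chromosome 1 from 179 to 180 Mb. Its Ethanol values ran from 15.1 kb per 100 Mb in Ethanol 6 to 75.0 in Ethanol 3, with a median of 29.6 (37.9 ± 23.1, SD, n = 6). Its Control values ran from 23.4 in Control 4 to 69.8 in Control 3, with a median of 29.7 (39.9 ± 19.9, n = 6). Ethanol 5 was also high, at 56.7, so a pair of animals stood above the rest in each group, with Control 2 at 60.4 beside Control 3. The study annotated peaks of this window upstream of Rras2, which encodes a small GTPase of the Ras family. The next largest Ethanol SDs among the members, 0.59 in each, belonged to the windows on chromosome 7 from 21 Mb and chromosome 6 from 131 Mb.

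At the other end, 3 members came closest to the overall median of 0.158. The smallest Ethanol SD among members, 0.20, was that of chromosome 13 from 37 to 38 Mb. Ethanol values there ran from 28.0 kb per 100 Mb in Ethanol 5 to 41.1 in Ethanol 6 (median 34.1) and Control values from 21.8 in Control 4 to 46.9 in Control 3 (median 34.6). This window holds study peaks inside Ccdc93, which acts in recycling of membrane proteins from endosomes, and others near Htr5b, a serotonin receptor gene, and Insig2, a regulator of sterol synthesis. Chromosome 4 from 59 Mb (Ethanol SD 0.21) and chromosome 16 from 86 Mb (0.23) followed.

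The windows shared features that the choice did not use directly, although the Control libraries that made it enter the measures over 12 libraries. They were sparse: mean covered length over the 12 libraries had a median of 28.7 kb, compared with 45.3 kb over all ranked windows, and 17 of the 30 held less than 30 kb, compared with 25.6% of all. Over all windows the SD fell with covered length (Spearman's rho -0.338 for Control and -0.398 for Ethanol, n = 1225 windows). Of the length covered in a member, a median of 53.4% came from peaks in the lower scoring 50% of their own library, compared with 35.2% over all windows. With the higher scoring 50% of peaks alone, 4 of the 30 still held 20 kb, while 70.8% of all windows did. Ranked by the SD left after a lowess trend on covered length, 26 of the 30 were chosen again. With Ethanol SD treated in the same way, 23 of the 30 windows then chosen were among the highest 10%. With the higher scoring 50% of peaks this count was 20 of 30, and with a minimum of 50 kb it was 21 of 30. Those settings kept 2 and 4 of the members, so they describe mostly other windows. Beyond this, the part of low covered length and low peak scores in the spread of the members was not tested.

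The choice of windows that varied between Control animals itself favours fewer regions listed in every Control animal, so the counts over 12 libraries are a description. Of the 1968 merged regions in the members, 199 (10.1%) were listed in all 12 libraries, compared with 19.7% of the 89565 regions in ranked windows. Regions in 1 library made up 35.4% and 34.6%, so the remainder, listed in some but not all libraries, was larger in the members (54.5% against 45.8%). Among regions with a peak in any Ethanol library, 274 of 1597 in the members (17.2%) were listed in all 6 Ethanol libraries, compared with 27.7% in ranked windows. Regions present in all 12 libraries carried a median of 43.0% of the covered length of a member and 66.8% of that of all windows.

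The number of peaks varied more than their width. Over Ethanol animals the SD of log2 peak number, after division by the library's own, had a median of 0.339 in the members and 0.176 over all windows, while for mean peak width the medians were 0.135 and 0.114. Number varied more than width in 29 of the 30 members and in 85.4% of all windows. In the window on chromosome 1 from 179 Mb, for example, a library listed between 13 and 52 peaks.

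Single regions, picked by their length or their Control SD, are given as examples. The widest region on chromosome 1 from 179 Mb, at chr1:179578704-179586226, was picked for display after its values were seen. It was listed in all 12 libraries, at 4611 to 6874 bp in Control (median 6708.5) and 5231 to 6845 bp in Ethanol (median 6413.5). It was thus open in every animal at a similar width before scaling to the library. The window around it covered 20324 bp in Ethanol 6 to 58127 bp in Ethanol 3, also before scaling. On the scaled log2 measure the Ethanol SD was 0.305 for the region and 0.861 for the window. The widest region on chromosome 16 from 64 Mb, at chr16:64802841-64807497, behaved in the same way, with 3053 to 4168 bp in Control (median 3505.5) and 3236 to 3860 bp in Ethanol (median 3362). The widest region on chromosome 9 from 4 Mb, at chr9:4391333-4402336, was also listed in every library, with 6815 to 10310 bp in Control (median 9115) and 6719 to 10435 bp in Ethanol (median 9579).

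The regions with the largest Control SD, among those listed in at least 6 libraries, were listed in some animals and not in others. This choice favours such regions, since with 100 bp added a missing peak lies far below a listed one on the log2 scale. At chr7:21355254-21360027, Control 4 and Control 5 listed no peak, while the other Control libraries covered 982 to 4321 bp. The 6 Ethanol libraries covered 860 to 3936 bp of this region. At chr9:4092455-4094793, 3 of 6 Control and 4 of 6 Ethanol libraries had a peak, the widest being 2199 bp in Control 2 and 1787 bp in Ethanol 3. Neither region was listed in every Control animal, and the former was listed in every Ethanol animal. In the other windows, chr6:131836844-131839503 was listed in 3 Control and 3 Ethanol libraries, and chr8:120469991-120473319 in 3 Control and 5 Ethanol libraries. Both chr16:64766390-64769346 and chr14:22023666-22026019 were listed in 4 Control and 5 Ethanol libraries.

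Other windows also varied in their widest region. On chromosome 7 from 21 Mb it was chr7:21993335-22000157, which Control 6 did not list and which reached 5389 bp in Control 3 (Control median 1851), with 502 bp in Ethanol 5 to 5920 bp in Ethanol 6 (median 2175). This region thus varied widely in both groups. At chr6:131849948-131858380 the covered length ran from 1270 bp in Control 2 to 6585 bp in Control 5 (median 3832.5) and from 3403 bp in Ethanol 4 to 7472 bp in Ethanol 1 (median 5023.5). At chr14:22034821-22045238 it ran from 1320 bp in Control 4 to 9623 bp in Control 1 (median 6604), and from 3118 bp in Ethanol 3 to 8787 bp in Ethanol 6 (median 6293.5). At chr8:120371093-120381626 it ran from 3043 to 6126 bp in Control (median 5273) and from 2697 to 9595 bp in Ethanol (median 4173.5). Windows with a similar SD thus differed in whether their widest region was constant or moved with the rest.

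The windows were divided into sets by the animals in which they were high. That they differed in this was noticed after the values were seen. The division was made from the Control libraries alone, by the sign of each window on their first principal component. This component held 57.4% of the variance of the 30 windows, and its share in other windows is not given here. Such a division tends to give opposed sets whatever the data, so the sets themselves are a description. The first set had 16 windows and the second set 14. Within Control, Control 3 lay above the group mean in 16 of 16 windows of the first set and Control 6 in 14 of 14 of the second set, which the division itself shaped.

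The Ethanol animals, which did not enter the division, showed the same kind of split. Ethanol 3 lay above the Ethanol mean in 14 of 16 windows of the first set and in 2 of 14 of the second set. Ethanol 1 lay above it in 12 of 14 windows of the second set and in 7 of 16 of the first set. Ethanol 5 was above in 10 of 16 windows of the first set and 1 of 14 of the second set, and Ethanol 4 and Ethanol 6 were above in 10 and 11 of the 14 windows of the second set. Ethanol 3 was the highest Ethanol library in 13 of the 30 windows and Ethanol 1 in 10.

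For windows on different chromosomes, the r over the 6 Ethanol libraries had a median of 0.326 within the first set (115 pairs) and 0.587 within the second set (82 pairs). Between the sets the median was -0.344 (216 pairs), and over all pairs of ranked windows on different chromosomes it was 0.023. The share of pairs with r above 0.5 was 36.5%, 57.3%, 8.33% and 21.1% in the same order. Windows of 1 set thus tended to be high in the same animals although they lay on different chromosomes. All these pairs rest on the same 6 libraries and are not independent of each other.

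The sets also differed in how they followed the covered length of the library, from 77.5 Mb in Ethanol 3 to 134.6 Mb in Ethanol 6. The r of a window with the library's covered length, over Ethanol, was positive in 14 of 14 windows of the second set (median 0.550, range 0.181 to 0.859). In the first set it was negative in 11 and positive in 5 of 16 (median -0.393, range -0.924 to 0.755). Over all 1225 windows the median was 0.226, and the share with a positive r is not given here. Over Control, which made the division, the medians were already apart, at -0.507 in the first set and 0.410 in the second. Taken over the 30 members, 10 had an r above 0.5, where 33.6% of all windows did, and 7 had an r below -0.5, where 20.3% of all windows did. Both shares are near the background. The window value is itself divided by the covered length, and the part of library size in the sets was not tested.

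**Figure D3:**
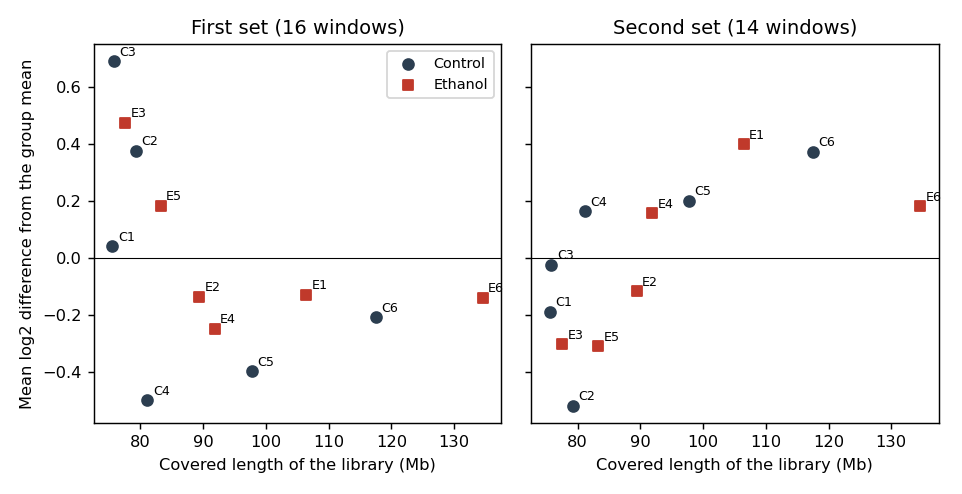
Mean log2 difference from the mean of its own group, over the 16 windows of the first set (left) and the 14 of the second set (right), against the covered length of the library in Mb. Each point is a library (C, Control, and E, Ethanol, with the replicate number). Control 3, Control 2 and Ethanol 3, all under 80 Mb, are highest in the first set, while Ethanol 1 and Control 6, both above 100 Mb, are highest in the second set. Other libraries depart from this order. Control 1, with the least covered length (75.6 Mb), lies at 0.04 in the first set and -0.19 in the second. Control 4 (81.1 Mb) is lowest in the first set, at -0.50, and lies at 0.16 in the second. Ethanol 6 (134.6 Mb) lies at 0.18 in the second set.

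The first set held the windows on chromosome 7 from 21 Mb, chromosome 9 from 4 Mb, chromosome 16 from 64 Mb, chromosome 14 from 22 Mb and chromosome 1 from 179 Mb. The second set held those on chromosome 6 from 131 Mb and chromosome 8 from 120 Mb. Their medians of mean covered length (29.8 and 26.6 kb), of the share of length in regions of all 12 libraries (43.7% and 41.6%) and of Ethanol SD (0.431 and 0.377) lay close together. Of the first set 12 windows, and of the second set 9, were among the highest 10% by Ethanol SD.

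Gene names could be given for 12 of the 30 windows, from the part of the study's own peak annotation that was held, and all were chosen after the values were seen. In 6 windows an annotated peak lay inside a gene. Of the second set, the window on chromosome 7 from 50 to 51 Mb had such peaks in Syt1, the calcium sensor of synaptic vesicle release. The window on chromosome 2 from 242 to 243 Mb had them in Ppp3ca, the catalytic subunit of the phosphatase calcineurin. The one on chromosome 5 from 170 to 171 Mb had them in Ajap1, which encodes a protein of adherens junctions. That on chromosome 8 from 52 to 53 Mb had them in Zbtb16, a zinc finger transcription factor, and Cadm1, a synaptic adhesion molecule. Of the first set, the window on chromosome 17 from 46 to 47 Mb had them in Elmo1, which acts in Rac signalling. Annotated peaks at a promoter, within 2 kb of a start site, numbered 0 in the members. This count covers only the 1997 peaks held and has no share over all windows beside it. It therefore does not show that the members lack promoter peaks.

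The window holding Syt1 peaks ran from 15.4 kb per 100 Mb in Control 2 to 44.4 in Control 4 (median 36.3) and from 22.2 in Ethanol 5 to 56.7 in Ethanol 1 (median 42.7). The window holding Ppp3ca peaks ran from 18.0 in Control 1 to 39.6 in Control 6 (median 19.6) and from 14.4 in Ethanol 3 to 35.5 in Ethanol 1 (median 24.7). In both, Ethanol 1 was the highest and Ethanol 3 or Ethanol 5 the lowest Ethanol animal, as in the second set as a whole. The window holding Zbtb16 peaks ran from 21.1 in Control 2 to 51.1 in Control 5 (median 37.8) and from 31.9 in Ethanol 5 to 54.4 in Ethanol 6 (median 39.7).

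The second question was whether neighbouring sequence moved together. Each window was divided into its first and second 500 kb, and the covered lengths of these parts were correlated over the 6 Ethanol libraries. In 23 members both parts held at least 5 kb on average. The median r between the parts was 0.636 in these members, compared with 0.236 over the 1031 windows that met the same minimum. It was positive in 22 of the 23 and in 66.0% of all. An r above 0.5 was found in 14 of the 23 members, where 30.5% of all windows had one. This contrast depended on scaling: without division by the library's covered length, 19 of 21 members and 90.9% of all windows had such an r, with medians of 0.833 and 0.819. The medians were close in the sets, at 0.651 in 15 windows of the first set and 0.607 in 8 of the second set. In the Control libraries, which chose the windows, the medians were 0.761 in members and 0.284 over all.

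With division by the library's covered length, no single window passed the test for this relation. By the two-sided exact permutation test, 5 of the 23 members had an unadjusted p under 0.05, where 10.4% of all windows did. After Benjamini-Hochberg adjustment over all windows, 0 members and 0 windows of the 1031 were under 0.05, and the smallest adjusted p of a member was 0.188. With 6 libraries the smallest p that the permutations can give is 0.00139. When the division by covered length was left out, 2 of 21 members and 119 windows in all had an adjusted p under 0.05 by this test.

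**Figure D4:**
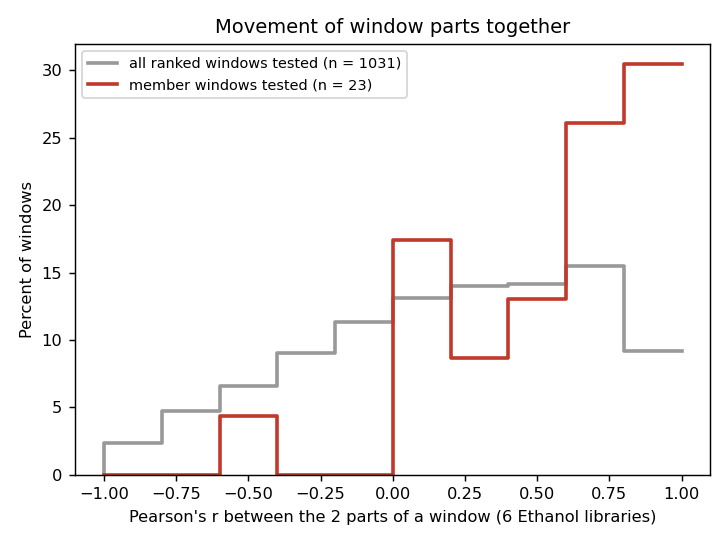
Distribution of Pearson's r between the first and second 500 kb of a window over the 6 Ethanol libraries, as the percent of windows in bins of r, for the 23 members and the 1031 windows with at least 5 kb in each part. The members (red) lie towards high r, and 22 of 23 are above 0.

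The parts went together most closely on chromosome 1 from 179 to 180 Mb, where r was 0.974 (exact permutation p = 0.00278, adjusted p = 0.188) and Spearman's rho 0.943 (exact permutation p = 0.0167). Both parts were highest in Ethanol 3 and lowest in Ethanol 6, and without these libraries r was 0.920. On chromosome 13 from 31 to 32 Mb, r was 0.960 (exact permutation p = 0.0139, adjusted p = 0.314) and rho 0.771 (exact permutation p = 0.103). Without Ethanol 3 and Ethanol 4, r there was 0.708.

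The parts of 2 other members did not follow each other. On chromosome 14 from 22 to 23 Mb, r was 0.014 (exact permutation p = 0.974, adjusted p = 0.992) and rho -0.20 (exact permutation p = 0.714). Without Ethanol 3 and Ethanol 5, r was 0.536. On chromosome 8 from 52 to 53 Mb, the window with Zbtb16 and Cadm1, r was -0.465 (exact permutation p = 0.347, adjusted p = 0.770) and rho -0.26 (exact permutation p = 0.658). Without Ethanol 3 and Ethanol 5, r turned to 0.994 over the 4 remaining libraries, so the negative value rested on that pair.

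Among Ethanol animals, the movement was weaker in windows farther away. Over Ethanol, members and ranked windows that start 1 Mb away had a median r of 0.453 (31 pairs), compared with 0.291 for all ranked windows at that distance. Of these pairs, 67.7% and 67.5% had a positive r, and 38.7% and 32.8% an r above 0.5, so the shares lay near the background. At 2 Mb the medians were 0.166 and 0.205, at 3 Mb 0.070 and 0.177, and at 5 Mb -0.015 and 0.099. From 2 Mb on, the median of the members over Ethanol (28 to 31 pairs at each distance) lay below that of all windows. Over Control, which chose the windows, it did not fall in this way: the medians of members at 1, 2, 3, 4 and 5 Mb were 0.426, 0.310, 0.233, 0.257 and 0.475, against 0.351, 0.287, 0.264, 0.199 and 0.211 for all windows.

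**Figure D5:**
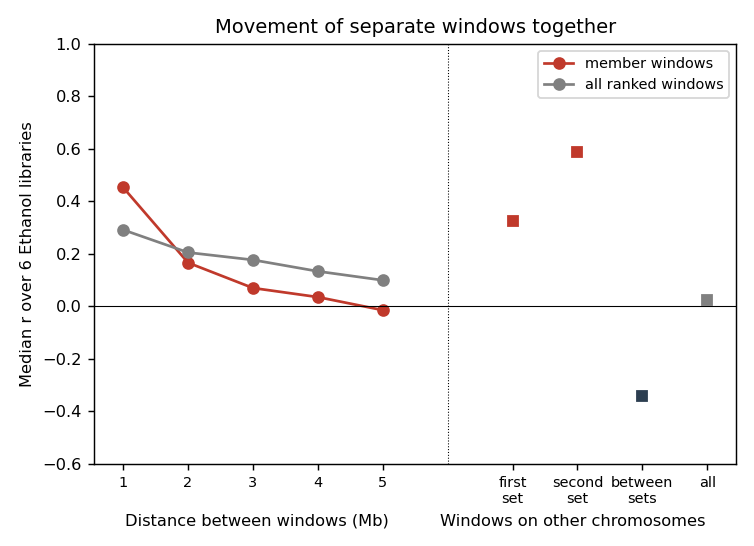
Median Pearson's r over the 6 Ethanol libraries between separate windows. On the left, pairs 1 to 5 Mb apart for members (red) and all ranked windows (grey), where the members fall from 0.453 to -0.015. On the right, pairs on different chromosomes within the first set, within the second set, between the sets and over all windows.

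The correlation of single neighbouring regions depended on which regions were taken. Among regions listed in at least 6 of the 12 libraries, 616 neighbouring pairs lay in the members, and their median r over Ethanol was 0.200, compared with 0.088 over 32622 pairs in all ranked windows. An r above 0.5 was found in 162 pairs (26.3%), where 23.2% of all pairs had one, so this share is near the background. Among regions listed in all 12 libraries, the median r was 0.439 over 169 pairs in members and 0.292 over all windows, and 43.8% of pairs in members and 34.3% of all had an r above 0.5. For regions in at least 6 libraries, positive values made up 64.1% of the 616 pairs in members and 55.7% of the 32622 in all windows. Without Ethanol 3 the median of these 616 pairs fell from 0.200 to 0.107, compared with 0.091 over all windows.

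For near and far pairs too, the medians were higher in members, while the shares above 0.5 lay near the background. Pairs up to 5 kb apart had a median r of 0.211 in members and 0.131 over all windows, and pairs over 50 kb apart 0.165 and 0.063. An r above 0.5 was found in 26.6% of the near pairs in members and 26.1% over all windows. For the far pairs these shares were 27.2% and 22.6%. The median was positive in 22 of the 30 members, a count that has no share over all windows beside it. On chromosome 1 from 179 Mb it was 0.807, with 13 of 15 pairs above 0.5. In the window with Zbtb16 and Cadm1 it was -0.21, with 3 of 25 pairs above 0.5.

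The design also allowed the groups to be compared in these windows. By limma over the 1234 windows with at least 20 kb, 0 of the 30 members and 0.0% of all windows differed between Ethanol and Control at an adjusted p under 0.05. At an unadjusted p under 0.05 there were 2 members, where 4.38% of all windows had one, and 16 of the 30 were higher in Ethanol. The median difference of Ethanol minus Control was 0.03 on the log2 scale in the members. The SE of the difference ran from 0.15 for the member with the largest covered length, on chromosome 2, to 0.34 for that on chromosome 1 from 179 Mb.

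The 2 members with the smallest p were both higher in Ethanol. On chromosome 5 from 170 to 171 Mb, the window with Ajap1, Control values ran from 17.5 kb per 100 Mb in Control 1 to 46.6 in Control 5 (median 27.5) and Ethanol values from 31.2 in Ethanol 5 to 48.9 in Ethanol 1 (median 36.3). The difference was 0.41 (SE 0.18, limma adjusted p = 0.973), and only Control 5 reached into the Ethanol range. On chromosome 4 from 59 to 60 Mb, Control values ran from 11.8 in Control 3 to 27.0 in Control 5 (median 20.4) and Ethanol values from 19.1 in Ethanol 5 to 27.7 in Ethanol 2 (median 25.9). There the difference was 0.36 (SE 0.16, limma adjusted p = 0.973), and without Control 3 it was 0.22.

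Regions listed in all 12 libraries were compared by their covered length. Of 199 such regions in the members, 0 had an adjusted p under 0.05 by limma, as did 0 of 21235 over the genome. At an unadjusted p under 0.05 there were 7 (3.52%), 3 of them longer in Ethanol, where 5.19% of all regions had one. The region with the smallest p, chr5:170665538-170674468 in the Ajap1 window, covered 2043 to 7210 bp in Control (median 3924.5) and 5106 to 8300 bp in Ethanol (median 6498.5). Its log2 difference after centring each library was 0.67 (SE 0.23, limma adjusted p = 0.941), and the groups overlapped.

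The second longer region, chr2:156435453-156439643, covered 1275 to 2797 bp in Control (median 1504) and 1811 to 3790 bp in Ethanol (median 2863), a difference of 0.65 (SE 0.24, limma adjusted p = 0.941). The shorter regions with the smallest p were chr7:104696575-104700395, with a difference of -0.35 (SE 0.14), and chr1:38542618-38544580, with -0.30 (SE 0.13), both at a limma adjusted p of 0.941. None of these differences held after adjustment.

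The list of 30 windows depended on how windows were drawn up. When the same choice was made with the higher scoring 50% of peaks, 2 of the 30 were found again. Only 4 of the 30 held the minimum of 20 kb in those peaks, so no more than 4 could be. With windows shifted by 500 kb 15 had a counterpart, and without division by the library's covered length 18 were kept.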

How the data were processed

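The authors deposited 1 peak list per library (BED, 5 columns), with positions and a score, taken here for ranking only. Per the submitters' processing notes, BWA, MACS2 2.1.1, bedtools 2.27.1, featureCounts 1.5.0 and edgeR were used, on build Rnor_6.0. How a score was made and the sequencing depth are not given in the sources used here.

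Each peak was assigned to the 1 Mb window of its start. Windows with a mean of at least 20 kb over 12 libraries were kept (1234 of 2625), and 9 were left out, on chromosome 15 from 29 to 33 Mb and chromosome 20 from 1 to 6 Mb. Values were log2((covered bp + 100) / library covered Mb). Peaks overlapping by at least 1 bp were merged into regions. Group means were tested with limma 3.58.1 (R 4.3.3), and parts of windows by exact permutation (numpy 2.4.6), with Benjamini-Hochberg adjustment over all features. For parts these were 1039 windows, which include left-out windows that met the 5 kb minimum. Spearman's rho was computed with scipy 1.17.1. Regions tested with limma were in all 12 libraries, as log2 length less the library median. In data simulated with each feature's own SD and independent noise, 100% of 200 windows and 66% of 200 regions changed by a log2 of 1 were recovered. The changed features were drawn at random from all windows or regions. Recovery among the members, whose SDs are larger, was not measured.

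Named were the 6 windows of largest Control SD, the 3 with the largest and smallest Ethanol SD, the 2 highest and lowest correlations of parts, the 2 smallest limma p, and the border. Regions named were the widest and the most variable in the first 6 windows, and the 2 with the smallest limma p in each direction. Other features were named after their values were seen. Windows, lists and tests were chosen with earlier results of these data known. The sets, the correlations with covered length and with distant windows, and the spread of peak number and width were added after seeing the data. Gene names came from the study's annotation of 1997 of its peaks (promoters within 2 kb of a start site, other genes within 200 kb), and 25 of 26 genes matched a table of names by gene ID. Gene families and cell type markers were not analysed here. The labels give no litter or sequencing batch. Samples with the same replicate number correlated at -0.31 to 0.54, with a mean of 0.15, compared with a mean of -0.03 for other pairs. The labels do not say whether the numbers mark pairs, and they were not taken as pairs in the main setting.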

Additional observations from a re-analysis of the deposited data

How the results depend on the processing

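Of 55 values recomputed under other settings with all libraries, 46 stayed within 1.5 times and 9 moved. The former include the counts of members called by limma in windows and regions. These were 0 in the main setting and stayed 0, so no ratio applies to them. The tally also takes the value in members alone, without the share over all windows beside it. The number of the 30 windows found again was 2 with the higher scoring 50% of peaks, 14 with the median absolute deviation, 8 with a minimum of 10 kb, 4 with a minimum of 50 kb, 18 without division by covered length and 15 with windows shifted by 500 kb. The filters cap some of these counts. Only 4 of the 30 held 20 kb in the higher scoring 50% of peaks. Members under 50 kb could not be chosen at that minimum, and the members' median covered length was 28.7 kb. Leaving out 1 library gave 21 to 27, the lowest without Control 3. Members whose parts had an r above 0.5 numbered 8 of 19 tested with the higher scoring 50% of peaks and 4 of 7 with a minimum of 10 kb, where the ranking took other windows, and 14 to 15 of 23 without 1 library. Without division by covered length, 19 of 21 members and 90.9% of all windows had such an r, so there the members did not stand out. In each setting 14 to 23 of 30 members were among the highest 10% by Ethanol SD, and 19 to 21 without 1 library. The median r of neighbouring regions was 0.439 when only regions listed in all 12 libraries were taken, 0.190 with the same number of peaks, 0.258 without division by covered length, and 0.107 (without Ethanol 3) to 0.248 without 1 library. Leaving out 1 library gave differences of 0.28 to 0.56 on chromosome 5 from 170 Mb and 0.22 to 0.46 on chromosome 4 from 59 Mb.

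With the replicate number as a block, 0 members were called by limma in windows and 0 in regions, as without it, while 3 of the 1234 windows passed. An unadjusted limma p under 0.05 was found in 6.81% of windows with the block and in 4.38% without it. Only 2 of 6 Control libraries correlated best with their own number. Of 60 groups of 6 values searched for a library far from the rest, 0 had one. The lists hold no reads, so depth limits cannot be given, and 6 animals per group limit the precision of each SD.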
